A study of Bos taurus with 27 samples.

Results

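The genes described here encode the simple-epithelial keratins KRT7, KRT8, KRT18 and KRT19, the intermediate filament protein vimentin (VIM), the membrane-to-actin linker ezrin (EZR), and the actin-binding proteins gelsolin (GSN), villin (VIL1), cofilin (CFL1) and transgelin-2 (TAGLN2). They were chosen by name, and all 10 were found among the 32637 genes of the count table. Of these, 9 were among the 12310 genes with at least 1 CPM (counts per 1000000 counts of a pool) in 12 pools, and VIL1 was not.

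Keratin filaments are built from pairs of a type II keratin, such as KRT7 or KRT8, with a type I keratin, such as KRT18 or KRT19, and are fastened to desmosomes, the spot-like junctions between epithelial cells. The outer layer of the blastocyst, the trophectoderm, is the first epithelium of the embryo, and KRT8 and KRT18 are among its best known products. Ezrin ties actin bundles to the apical membrane, gelsolin and villin cut and cap actin filaments, cofilin cuts and disassembles them, and transgelin-2 binds and bundles them, while vimentin is the filament of mesenchymal cells and leukocytes.

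RNA was measured in 27 pools of 2 bovine (Bos taurus) blastocysts each, all with stage score 7 (expanding or expanded) and quality score 1. The embryos were produced in vitro from oocytes that had been matured with follicular fluid from preovulatory follicles of either greater or lesser maturity. The labels name each pool by a number and give neither its treatment nor its fertilisation replicate. All 27 pools were therefore described as 1 set, by the lowest, median and highest value, and no treatments were compared. The study's methods state that the embryos of a pool shared treatment and replicate, so a pool is not an individual embryo, and pools may also share either.

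The total count of a pool was between 10517606 and 44253564, with a median of 22293594, and between 15491 and 18959 genes had a count. The floor of 3 counts was equal to between 0.0678 and 0.285 CPM, which covers counting error only. The blastocyst label was set beside 14 transcription factors of the trophectoderm, each of which had counts in some or all pools. EOMES had counts in 20 pools and ELF5 in 22, with medians of 0.0672 and 1.35 CPM. GATA3 was between 90.5 and 238 CPM and TFAP2C between 151 and 298 CPM, whereas CDX2 was between 1.97 and 9.42 CPM. Lumican (LUM), a gene of connective tissue, was at 82.8 CPM in pool 12 against a median of 0.857 CPM, and the 8 stromal markers summed to 135 CPM there against a median of 29.2 CPM. In whole embryos, fewer cells of a type and less RNA per cell cannot be told apart.

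The 10 genes together held between 1.85% (pool 12) and 4.48% (pool 31) of the counts of a pool, with a median of 3.15%. Most of these counts came from KRT8 and KRT18. CPM was not divided by transcript length, so levels are compared between pools for each gene and not between genes. Near-identical processed copies of KRT8, KRT18 and CFL1 are known in mammalian genomes, and how reads that fit several places were counted is not given in the sources used here, so the levels of these genes are uncertain to that extent.

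**Figure D1:**
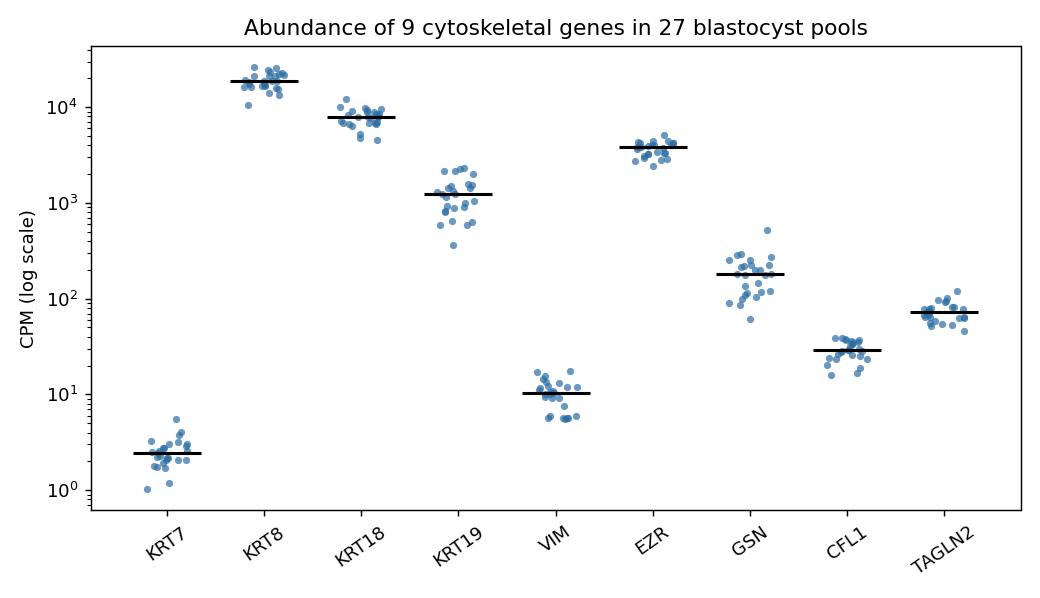
Abundance of the 9 retained genes, in CPM on a log scale that is not divided by transcript length. Each point is 1 of 27 pools and the black line is the median. GSN and KRT19 are spread most widely around their medians among the abundant genes, from 61.3 to 522 CPM and from 361 to 2324 CPM.

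KRT8 (gene ID 281269, chromosome 5, 27040267 to 27047717 on ARS-UCD2.0), the type II keratin of simple epithelia, was at 10633 CPM in the lowest pool, 18607 CPM at the median and 26270.0 CPM in the highest. These levels were 1.06% to 2.63% of all counts of a pool, from 207286 to 820355 counts. Pool 12 stood below the next lowest, pool 32, which had 13415 CPM, whereas pool 31 was followed closely by pool 14 with 25852 CPM. The highest level was 2.47 times the lowest. The ratio of the upper to the lower quartile was 1.30, and 24.3% of the retained genes had a smaller ratio.

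KRT18 (506480, chromosome 5, 26998520 to 27002170), the type I partner of KRT8, was at 4545 CPM in the lowest pool, 7937 CPM at the median and 12064 CPM in the highest. The extremes fell in the same pools as for KRT8, with pool 12 lowest and pool 31 highest. The quartile ratio was 1.32, close to that of KRT8. The gene lies 38096 bases from KRT8, and 1 gene, annotated as a long non-coding RNA, lies between them.

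The counts of KRT8 were between 2.03 and 2.94 times those of KRT18, with a median of 2.39. This ratio is taken within a pool and is therefore free of scaling. The highest ratio was 1.44 times the lowest, a narrower range than the 2.47-fold and 2.65-fold ranges of the levels themselves. Over the pools the levels of the pair rose and fell together (Spearman rho = 0.857, permutation p = 1e-07, the smallest these permutations can give, adjusted p = 0.000461 with Benjamini-Hochberg over 110745 tests of 9 genes against all retained genes). Pearson's r on log2(CPM + 1) was 0.904 (permutation p = 1e-05, the smallest possible) and 0.854 without pools 12 and 31, the farthest from the median. With each pool left out in turn, rho stayed between 0.839 and 0.896.

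KRT19 (514812, chromosome 19, 41731623 to 41735456), the smallest keratin, a type I protein, was at 361 CPM in pool 32, 1229 CPM at the median and 2324 CPM in pool 31. Pool 45 was close to the highest with 2267 CPM, and pool 12 was second lowest with 583 CPM. Its spread was wider than that of KRT8 and KRT18, with a highest level 6.43 times the lowest and a quartile ratio of 1.78. Among the 1810 genes with a median of at least 100 CPM, 97.7% had a smaller quartile ratio, against 74.6% for KRT8 and 78.2% for KRT18. Over all retained genes the share for KRT19 was 68.8%.

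KRT19 was correlated with KRT18 (rho = 0.656, permutation p = 0.000285, adjusted p = 0.0423, r = 0.723 with p = 2e-05, and r = 0.659 without pools 31 and 12). The call was close to the limit, and it was kept in only 14 of the 27 sets with 1 pool left out. With KRT8 the correlation was 0.583 and was not called (permutation p = 0.00171, adjusted p = 0.0940). The counts of KRT18 were between 3.45 and 13.0 times those of KRT19, so the proportion of these type I keratins differed up to 3.78-fold between pools.

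KRT7 (535697, chromosome 5, 27674858 to 27688924), the second type II keratin of simple epithelia, was low, at 1.02 CPM in pool 21, 2.45 CPM at the median and 5.54 CPM in pool 45. These levels rested on 18 to 118 counts, and their variance was 6.10 times that of counting error (chi-square per degree of freedom). Pool 45 stood above the next pool, which had 4.01 CPM. KRT7 did not follow its neighbour KRT8, which lies 627140 bases away with 34 genes between (rho = 0.059, adjusted p = 0.953). The ratio of type II to type I keratin counts was between 1.58 and 2.64, with a median of 2.10, and was set almost wholly by the other keratins.

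**Figure D2:**
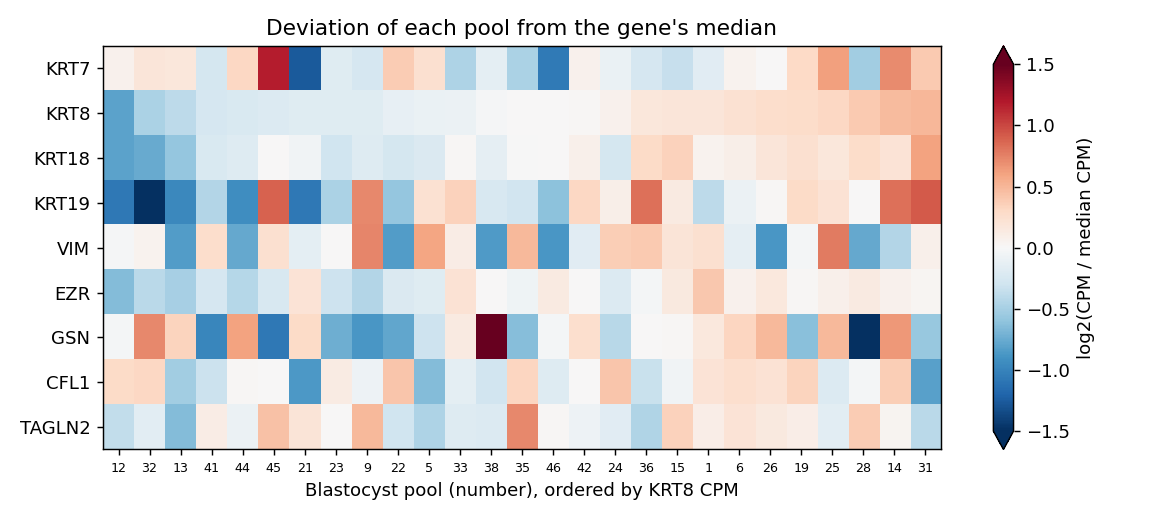
Level of each gene in each pool as log2(CPM / median CPM), with pools ordered from left to right by KRT8 and the colour scale clipped at 1.5 in either direction. KRT8, KRT18 and EZR are low in pool 12 and change together across the order, whereas KRT7, VIM, GSN, CFL1 and TAGLN2 do not follow it.

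Ezrin (EZR, 281574, chromosome 9, 95156279 to 95202249) was at 2453 CPM in pool 12, 3845 CPM at the median and 5071 CPM in pool 1. Its quartile ratio was 1.27, and 19.8% of the retained genes had a smaller one. Among the 1810 genes with a median of at least 100 CPM, the share was 67.5%. EZR was correlated with KRT18 (rho = 0.716, permutation p = 4.31e-05, adjusted p = 0.0163, r = 0.760 with p = 1e-05) and with KRT8 (rho = 0.692, permutation p = 9.73e-05, adjusted p = 0.0249, r = 0.746 with p = 1e-05). Without pools 12 and 31, r was 0.739 and 0.694. The call with KRT18 was kept whichever pool was left out, and the call with KRT8 was lost without pool 12 or without pool 13, although rho was at least 0.655 whichever pool was left out. Stromal markers were high in pool 12, as given above, and their part in its low keratin and ezrin levels was not tested. In pools 32 and 13, the next lowest in KRT8, the stromal markers summed to 22.0 and 20.5 CPM. Epiblast markers summed to 1016, 1344 and 1103 CPM in pools 12, 32 and 13, against a median of 836 CPM, and pool 32 was the highest. Hypoblast markers summed to 983, 568 and 1096 CPM there, against a median of 1135 CPM. The trophectoderm factors summed to 695, 916 and 775 CPM, against a median of 825 CPM. The part of these lineages in the low levels was not tested.

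Of the 36 pairs that the 9 genes form, 4 were called, all of them positive: KRT8 with KRT18, each of these with EZR, and KRT18 with KRT19. At an unadjusted p of 0.05, 6 pairs passed. KRT19 and EZR, which both follow KRT18, had a correlation with each other of 0.259 (adjusted p = 0.655). The most negative pairs were VIM with GSN (rho = -0.358, adjusted p = 0.454) and KRT7 with TAGLN2 (rho = -0.355, adjusted p = 0.460), and neither was called.

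**Figure D3:**
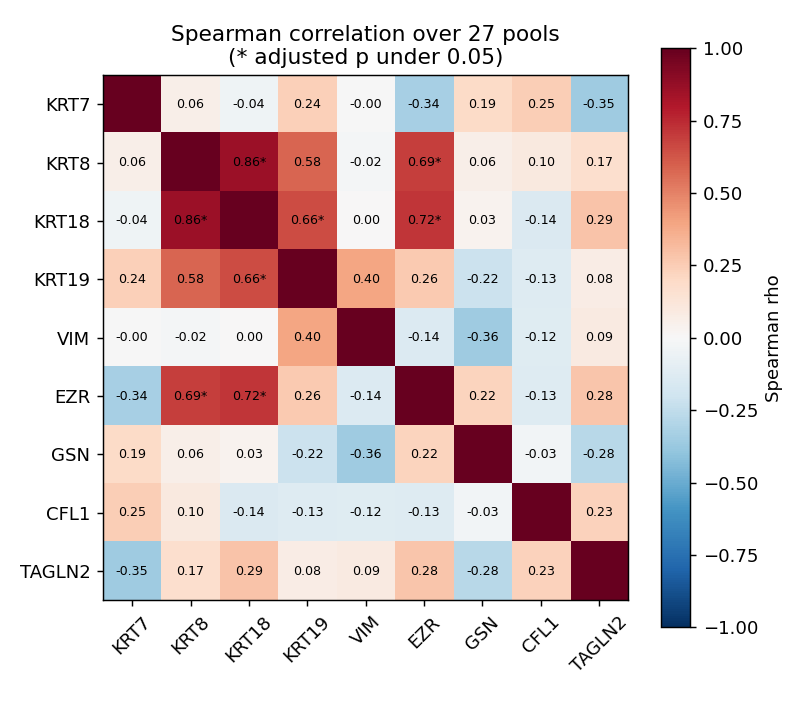
Spearman correlation over 27 pools for each pair of the 9 genes, with an asterisk where the adjusted p is under 0.05. The marked pairs are KRT8 with KRT18 (0.86), KRT18 with EZR (0.72), KRT8 with EZR (0.69) and KRT18 with KRT19 (0.66).

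**Figure D4:**
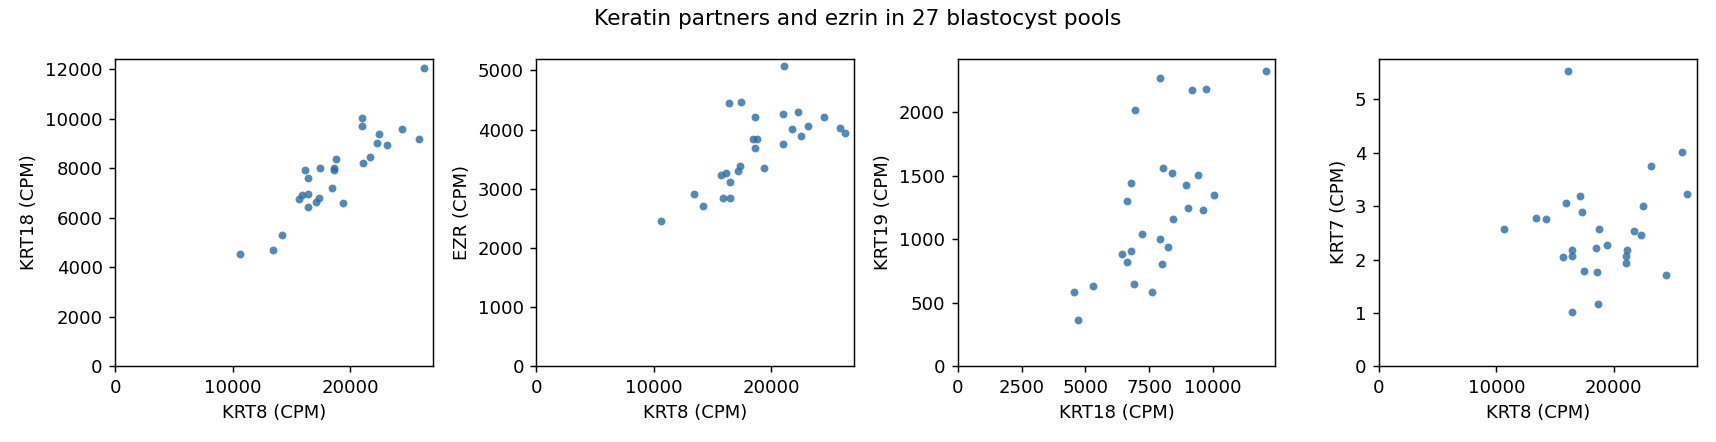
CPM of KRT18, EZR and KRT7 against KRT8, and of KRT19 against KRT18. Each point is 1 of 27 pools and both axes start at 0. KRT18 and EZR rise with KRT8, with pool 12 at the lower left (10633 CPM of KRT8), and KRT7 has no such trend (rho = 0.059).

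Of the 8 other genes, 2 were called as higher together with KRT8 (KRT18 and EZR), against 0.707% of all 12309 retained genes, and 0 were called as lower, against 0.991%. For KRT18 the counts were 3 of 8 (KRT8, KRT19 and EZR) against 0.821%, and 0 against 1.78%. For KRT19 they were 1 of 8 (KRT18) against 0.975%, and 0 against 1.31%. For EZR they were 2 of 8 against 0.146%, and 0 against 0.406%. The split of all called genes into higher and lower depended on scaling: with TMM library sizes, 156 genes were higher and 79 lower with KRT8, against 87 and 122 by total counts. The corresponding numbers were 211 and 121 against 101 and 219 for KRT18, 180 and 109 against 120 and 161 for KRT19, and 71 and 61 against 18 and 50 for EZR.

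The genes most like KRT8 over the pools were PLLP, which encodes the membrane protein plasmolipin (rho = 0.856, r = 0.840), STXBP2, a syntaxin-binding protein of vesicle fusion (rho = 0.825, r = 0.772), and P4HA2, a collagen prolyl hydroxylase (rho = 0.809, r = 0.744). STXBP2 was also the most like KRT18 (rho = 0.845, r = 0.778), followed by TMEM125 (rho = 0.840, r = 0.870) and PRSS8, a membrane-anchored serine protease of epithelia (rho = 0.832, r = 0.846). The adjusted permutation p for each was 0.00180 or smaller. Of the genes called as higher with each, 54 were shared, 62.1% of the 87 for KRT8 and 53.5% of the 101 for KRT18. With KRT19 the overlap was 17 genes for KRT8 and 27 for KRT18, which were 14.2% and 22.5% of the 120 genes of KRT19. EZR was most like IGF2BP3, an RNA-binding protein (rho = 0.794, adjusted permutation p = 0.00277), the acyl-CoA synthetase ACSL6 (rho = 0.756, 0.00816) and the phospholipase PLA2G15 (rho = 0.753, 0.00889).

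Of the 7 tested genes of actin itself and its monomer-binding proteins, ACTB, cytoplasmic beta-actin, was called with KRT18, KRT8 and EZR. ACTB was at 11217 CPM in the lowest pool, 14819 CPM at the median and 18102 CPM in the highest. Its correlation with KRT18 was 0.718 (adjusted permutation p = 0.0162, r = 0.699, and r = 0.691 without the 2 farthest pools), and it was called in each of the 27 sets with 1 pool left out. With KRT8 it was 0.672 (adjusted permutation p = 0.0339) and with EZR 0.642 (adjusted permutation p = 0.0494), called in 16 and 8 of those sets and under 7 and 5 of 8 alternative settings. Gamma-actin, ACTG1, was just past the limit with KRT8 (rho = 0.635, adjusted permutation p = 0.0528). The median rho of the 7 genes was 0.418 with KRT8 and 0.242 with KRT18, against -0.07 and -0.10 over all retained genes.

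Of the 14 tested genes for other severing and capping proteins, FLII, a protein of the gelsolin family, rose with KRT8 (rho = 0.714, adjusted permutation p = 0.0168, r = 0.643, and r = 0.675 without the 2 farthest pools). FLII ranged from 10.4 to 43.1 CPM around a median of 22.0 CPM, and its call was kept whichever pool was left out. COTL1, a coactosin-like actin-binding protein, was called with KRT18 (rho = 0.643, adjusted permutation p = 0.0481), in 6 of the 27 sets and under 5 of 8 alternative settings. CAPZA2, a subunit of the capping protein of filament ends, fell as KRT18 rose (rho = -0.773, adjusted permutation p = 0.00615, r = -0.738) and as KRT8 rose (rho = -0.662, adjusted permutation p = 0.0392). The negative call with KRT18 was lost with another scaling, at an adjusted p of 0.0527 with TMM and 0.0540 with DESeq2 size factors, and that with KRT8 was lost as well, at 0.222 and 0.242. The median rho of the 14 genes was 0.08 with KRT8 and 0.09 with KRT18. Destrin (DSTN), a relative of cofilin, and scinderin (SCIN), a relative of gelsolin, had medians of 2161 and 58.8 CPM and were called with none of the 9 genes.

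Of the 16 tested genes for ezrin relatives and microvillus proteins, PLS1, the plastin that bundles actin in microvilli, was called with KRT19 (rho = 0.761, adjusted permutation p = 0.00723, r = 0.801, and r = 0.799 without the 2 farthest pools). PLS1 was between 241 and 676 CPM. It was also called with KRT18 (rho = 0.642, adjusted permutation p = 0.0492), but in only 5 of the 27 sets with 1 pool left out, whereas the call with KRT19 was kept in all 27. The ezrin relatives radixin (RDX) and moesin (MSN), at medians of 111 and 83.4 CPM, were not called with EZR, with rho of 0.172 and -0.176.

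Among the 10 tested genes of keratin anchors and desmosomes, the call with the highest correlation was that of DSC2, a desmosomal cadherin, with KRT19. DSC2 was at 47.7 CPM in the lowest pool, 116 CPM at the median and 233 CPM in the highest. Its correlation with KRT19 was 0.837 (adjusted permutation p = 0.000461, r = 0.852, and r = 0.843 without the 2 farthest pools). Desmoplakin (DSP), which links keratin filaments to the desmosome, was between 16.1 and 86.9 CPM and was called with KRT19 (rho = 0.752, adjusted permutation p = 0.00898, r = 0.780) and with KRT18 (rho = 0.657, adjusted permutation p = 0.0422). Both calls with KRT19 were kept whichever pool was left out, and the call with KRT18 was kept in 9 of the 27 sets and under 5 of 8 alternative settings. The other desmosomal cadherin in the test, DSG2, had a correlation of -0.158 with KRT19 and was not called. The median rho of the 10 genes was 0.10 with KRT19, 0.39 with KRT8 and 0.32 with KRT18, against -0.08, -0.07 and -0.10 over all genes.

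Of the other intermediate filament genes, 8 were tested. PRPH, which encodes peripherin, rose with KRT19, from 45.3 to 439 CPM (rho = 0.770, adjusted permutation p = 0.00641, r = 0.741, and r = 0.678 without the 2 farthest pools). Neurofilament light chain, NEFL, fell as KRT18 rose (rho = -0.656, adjusted permutation p = 0.0426), with a median of 14.2 CPM. This call was kept in 13 of the 27 sets with 1 pool left out and under 4 of 8 alternative settings.

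The table names 53 further keratin genes. Of these, 18 had no count in any pool, 35 had a count, and 4 were retained: KRT5, KRT10, KRT14 and KRT80. KRT5, a type II keratin of basal cells in stratified epithelia, was at 2.54 CPM in the lowest pool, 17.2 CPM at the median and 71.8 CPM in pool 32, which was also the pool with the lowest KRT19. Over the pools KRT5 fell as KRT19 rose (rho = -0.730, adjusted permutation p = 0.0135, r = -0.695, and r = -0.608 without the 2 farthest pools), and the call was kept whichever pool was left out. KRT10 had a median of 12.8 CPM, KRT80 of 3.51 CPM and KRT14, the partner of KRT5, of 0.904 CPM, and none was called with any of the 9 genes. KRT14 had a correlation of 0.060 with KRT19.

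Of the inner lineages, 1 of 8 tested hypoblast markers and 1 of 8 tested epiblast markers were called with KRT19. APOA1, an apolipoprotein on the hypoblast list, rose with it from 203 to 1904 CPM (rho = 0.698, adjusted permutation p = 0.0230, r = 0.702), and this call was kept under 8 of 8 alternative settings. DPPA3, on the epiblast list, fell as KRT19 rose (rho = -0.718, adjusted permutation p = 0.0162, r = -0.686), and the call was lost with DESeq2 size factors (0.0514). The other 7 tested genes of each list were not called. The transcription factors of the hypoblast gave a rho with KRT19 of -0.170 for GATA6 and 0.603 for HNF4A, and those of the epiblast -0.547 for POU5F1 and 0.278 for NANOG. The median rho with KRT19 was 0.016 over the hypoblast list and -0.158 over the epiblast list, against -0.084 over all genes. The summed CPM of each list, in which abundant genes such as APOA1 weigh most, gave larger values. KRT19 had a rho of 0.685 with the hypoblast sum and -0.645 with the epiblast sum. For KRT18 these were 0.258 and -0.501, and for KRT8 0.114 and -0.351. No p-value was computed for the sums. DPPA3, whose transcript is also known as one that the oocyte supplies, was between 108 and 411 CPM. It was called with KRT18 as well (rho = -0.670, adjusted permutation p = 0.0347, r = -0.736), in 16 of the 27 sets with 1 pool left out and not with TMM (0.0698) or DESeq2 size factors (0.0645). Of 13 tested trophectoderm transcription factors, TFAP2A rose with KRT8 (rho = 0.667, adjusted permutation p = 0.0360), at 1.04 to 10.8 CPM, and 0 were called with KRT18 or KRT19. The call of TFAP2A was kept in 15 of the 27 sets and under 4 of 8 alternative settings.

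The genes most like KRT19 were ENO1, a glycolytic enolase (rho = 0.896, r = 0.866), the membrane transporter SLC44A4 (rho = 0.853, r = 0.834) and the hydrolase ABHD14B (rho = 0.839, r = 0.861), each with an adjusted permutation p of 0.000461. ENO1 had a median of 711 CPM. For KRT7, MAN1A2, a mannosidase of the Golgi, was highest (rho = 0.695, adjusted permutation p = 0.0241, r = 0.629, and r = 0.519 without the 2 farthest pools), and it was the single gene called as higher with KRT7, a call that the edgeR slope did not keep (0.0635). Of the 8 other genes, 0 were called as higher with KRT7, against 0.00812% of all genes, and 0 as lower, against 0.0244%. The genes LOC539166 (rho = 0.639) and SPATA20 (rho = 0.620) followed, with adjusted permutation p of 0.0509 and 0.0631.

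Vimentin (VIM, 280955, chromosome 13, 31653816 to 31661745) was at 5.59 CPM in pool 26, 10.2 CPM at the median and 17.5 CPM in pool 25, with 63 to 453 counts. Pool 9 was close to the highest with 17.1 CPM. No pool lay between 7.54 and 9.11 CPM, with 8 pools at or below this range and 19 pools at or above it. Steps of similar size lay between 6.01 and 7.54 CPM and between 15.4 and 17.1 CPM, so no groups of pools were drawn from it. VIM was not called with any other of the 9 genes: 0 of 8 were higher, against 0.203% of all genes, and 0 lower, against 0.0162%. Its highest correlation among them was with KRT19 (rho = 0.396, permutation p = 0.0417, adjusted p = 0.377).

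Of the 7 tested leukocyte markers, 3 were called with VIM. CORO1A, an actin-binding coronin of blood cells, was between 1.69 and 14.3 CPM (rho = 0.701, adjusted permutation p = 0.0220, r = 0.707, and r = 0.617 without pools 25 and 9). FCER1G, a signalling chain of Fc receptors, was between 0.522 and 3.97 CPM (rho = 0.691, adjusted permutation p = 0.0254, r = 0.696, and r = 0.663). CD74, the invariant chain of antigen presentation, was between 1.60 and 17.6 CPM (rho = 0.683, adjusted permutation p = 0.0291, r = 0.698, and r = 0.589). In pool 9, the highest in CORO1A and CD74, VIM was second highest, and in pool 25, the highest in VIM, CORO1A was at 11.1 CPM and CD74 at 14.1 CPM. The call of FCER1G was kept whichever pool was left out, that of CORO1A was lost without pool 25, and that of CD74 was lost without each of 6 pools in turn, pool 9 (adjusted permutation p = 0.0538) and pool 25 among them.

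The other tested leukocyte markers gave a rho with VIM of 0.618 for PTPRC, 0.627 for TYROBP, 0.565 for LCP1 and 0.010 for CD14, and these were not called. The median over the 7 was 0.627, against -0.03 over all retained genes. All 12 markers of the list had counts, and they summed to between 10.1 CPM (pool 31) and 80.1 CPM (pool 9), with a median of 30.0 CPM. The defining T cell markers CD3E and CD3D had medians of 0.900 and 0.841 CPM, and the B cell marker CD79A 0.170 CPM. The part of leukocyte RNA in the VIM level was not tested. Of the stromal, cumulus and mesenchymal lists, 0 of 4, 0 of 6 and 0 of 2 tested genes were called with VIM.

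The genes most like VIM over all pools were LOC530031 (rho = 0.757, adjusted permutation p = 0.00813, r = 0.741), MYO1F, a myosin of leukocytes (rho = 0.754, adjusted permutation p = 0.00889, r = 0.776), and LST1, a leukocyte membrane protein (rho = 0.731, adjusted permutation p = 0.0135, r = 0.763). Their medians were between 1.15 and 2.23 CPM.

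**Figure D5:**
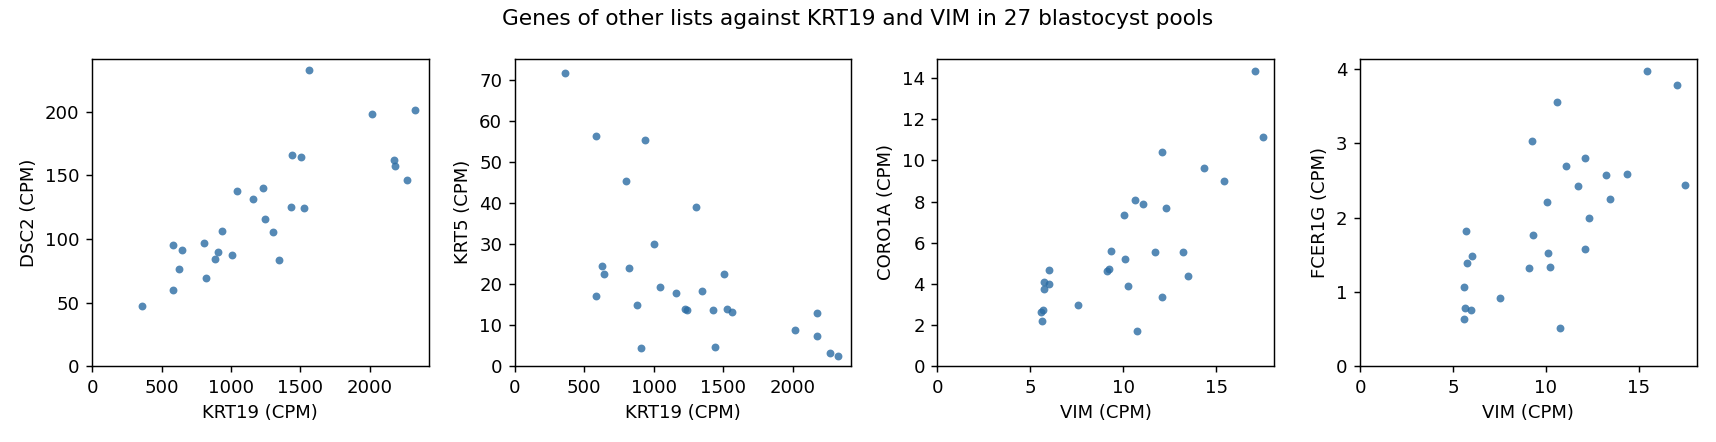
CPM of DSC2 and KRT5 against KRT19, and of CORO1A and FCER1G against VIM. Each point is 1 of 27 pools and all axes start at 0. DSC2 rises with KRT19 (rho = 0.837) and KRT5 falls (rho = -0.730), and CORO1A and FCER1G rise with VIM (rho = 0.701 and 0.691).

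Gelsolin (GSN, 535077, chromosome 8, 110672965 to 110733958) was the most variable of the retained genes in the set, at 61.3 CPM in pool 28, 180 CPM at the median and 522 CPM in pool 38. Pool 38 stood well above the next pool, which had 296 CPM. The highest level was 8.51 times the lowest and the quartile ratio was 1.95. Among the 1810 genes with a median of at least 100 CPM, 98.6% had a smaller quartile ratio, and among all retained genes 75.4%. GSN was called with 0 of 8 other genes as higher, against 0.154% of all genes, and 0 as lower, against 0.0162%.

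The genes most like GSN were TADA2B, a transcriptional adaptor (rho = 0.805, adjusted permutation p = 0.00221, r = 0.722), ERCC3, a helicase of transcription factor TFIIH (rho = 0.725, adjusted permutation p = 0.0151, r = 0.695), and PLPBP, a pyridoxal phosphate-binding protein (rho = 0.709, adjusted permutation p = 0.0188, r = 0.639). On the lists, COL4A1, a basement membrane collagen on the hypoblast list, was called with GSN (rho = 0.656, adjusted permutation p = 0.0426, r = 0.633). COL4A1 was between 11.2 and 102 CPM and, like GSN, was highest in pool 38. Its call was kept in 11 of the 27 sets with 1 pool left out and was lost with TMM (0.0725) and DESeq2 size factors (0.0801), and 1 of 8 tested hypoblast markers was called. The call of PLPBP was kept under 4 of 8 alternative settings. By total counts, 19 genes were higher and 2 lower with GSN, and by DESeq2 size factors 11 and 3.

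Cofilin (CFL1, 534553, chromosome 29, 43973108 to 43976493) was at 16.1 CPM in pool 21, 29.3 CPM at the median and 39.1 CPM in pool 24. Its quartile ratio was 1.43, and 42.2% of the retained genes had a smaller one. The 8 other genes gave 0 calls as higher, against 0.211% of all genes, and 0 as lower, against 0.0487%. The genes most like CFL1 were the ribosomal protein gene RPL28 (rho = 0.810, adjusted permutation p = 0.00168, r = 0.795), ANAPC11, a subunit of the anaphase-promoting complex (rho = 0.781, adjusted permutation p = 0.00494, r = 0.782), and the small GTPase gene RAB20 (rho = 0.758, adjusted permutation p = 0.00768, r = 0.849).

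Profilin (PFN1), which binds actin monomers and promotes filament growth, was called with CFL1. PFN1 was at 176 CPM in the lowest pool, 323 CPM at the median and 419 CPM in the highest (rho = 0.673, adjusted permutation p = 0.0338, r = 0.759, and r = 0.720 without the 2 farthest pools). Its call was kept in 18 of the 27 sets with 1 pool left out, and was past the limit with TMM and with DESeq2 size factors, at 0.0532 and 0.0545. Of the 15 tested regulators of cofilin, PDXP, the phosphatase chronophin, was called with CFL1 (rho = 0.659, adjusted permutation p = 0.0411), at 1.53 to 5.47 CPM and in 14 of the 27 sets. SSH3, a slingshot phosphatase, was called with KRT19 (rho = 0.645, adjusted permutation p = 0.0475), in 6 sets. Each of these calls was kept under 1 of 8 alternative settings. The median rho of the 15 genes with CFL1 was 0.01, against 0.05 over all genes. LIMK1 and LIMK2, the kinases that switch cofilin off, had medians of 1.91 and 18.0 CPM and were not called with CFL1.

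Transgelin-2 (TAGLN2, 282379, chromosome 3, 9761180 to 9769006) was at 46.0 CPM in pool 13, 72.1 CPM at the median and 119 CPM in pool 35, with a quartile ratio of 1.29. It was called with 0 of 8 other genes as higher, against 0.00812% of all genes, and 0 as lower, against 0.0325%. KLHL23 was the single gene called as higher with it (rho = 0.642, adjusted permutation p = 0.0494, r = 0.482, and r = 0.397 without the 2 farthest pools), and this call was lost under each of the 8 alternative settings, with an adjusted p of 0.0556 with TMM and 0.195 by Pearson correlation. ZNF432 (rho = 0.627) and RAB31 (rho = 0.601) followed, with adjusted permutation p of 0.0578 and 0.0772. Of the list of calponin and tropomyosin genes, 6 were tested and 0 were called with any of the 9 genes.

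Villin (VIL1, 281573, chromosome 2, 106422826 to 106446519), the severing and bundling protein of intestinal microvilli, had 20 counts in all. Of these, 18 were in pool 22 (0.597 CPM), 1 in pool 21 and 1 in pool 41, and the other 24 pools had none. A count of 0 allows a level of up to between 0.0678 and 0.285 CPM, depending on the pool. VIL1 was not tested.

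Over the 16 lists, 136 genes were tested against the 9 genes in 1224 tests. Of these, 28 were called (2.29%), against 0.873% of the tests over all retained genes. The lists were chosen with earlier results of these data known, and a gene called with several of the 9 counts each time. The 2 shares are therefore a description and not a test of the lists. The lists of cumulus and granulosa markers (6 tested), stromal markers (4), calponin and tropomyosin genes (6), epithelial identity genes (8) and mesenchymal transition genes (2) gave 0 calls with any gene. The monocyte marker CD14 fell as KRT8 rose (rho = -0.662, adjusted permutation p = 0.0388), between 0.0652 and 5.03 CPM. That call was kept in 15 of the 27 sets and was lost with TMM (0.0542) and DESeq2 size factors (0.0549).

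Depth was set beside the levels. With the total count of the pool, 0 of the 9 genes were called as higher or as lower, as were 0% and 0% of all 12310 retained genes (Spearman correlation with Benjamini-Hochberg adjustment), and 415 genes (3.37%) passed an unadjusted p of 0.05. With the number of genes detected, 0 were called in either direction, against 0% and 0%, and 1312 genes (10.7%) passed the unadjusted limit. KRT18 and KRT19 were among these, with rho of -0.446 (permutation p = 0.0208, adjusted p = 0.413) and -0.474 (permutation p = 0.0133, adjusted p = 0.372). The part of library complexity in the correlations of KRT18 and KRT19, with each other or with other genes, was not tested. The alternative settings took out the total count but not the number of genes detected.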

How the data were processed

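RNA of 27 pools of blastocysts was copied from the poly(A) tail and amplified (SMART-Seq v4 3' DE Kit). After trimming (fastp) and mapping to ARS-UCD2.0 (STAR), the authors assigned reads to genes, and the deposited table holds the raw counts of 32637 genes, not normalized. Versions, strand setting and treatment of multi-mapping reads are not given in the sources used here, and reads of overlapping antisense genes cannot be told apart. The counts are reads, not molecules.

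CPM was the count divided by the pool's total count. A gene was retained where at least 12 pools reached 1 CPM. No 2 pools agreed within counting error: over 351 pairs of pools the chi-square per degree of freedom was at least 23.9. Gene positions came from RefSeq. Each retained gene was correlated with each of the 9 retained genes by Spearman's rho, with two-sided p from 10000000 permutations of the pools, adjusted by Benjamini-Hochberg over all 110745 tests and called at 0.05. Pearson's r used log2(CPM + 1) and 100000 permutations. Permutation takes the pools as exchangeable, although pools may share a treatment or fertilisation replicate. Neither is in the labels, so neither was compared or used as a batch. The p-values refer only to these pools and may be too small where pools share either.

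Alternatives were TMM library sizes (edgeR 4.0.16), DESeq2 1.42.0 size factors, all genes with a count, Pearson correlation, slopes in edgeR and DESeq2, removal of the rank of the total count, and leaving out pools. The genes named were the 10 chosen genes, list genes called with them, other keratins, markers a result turned on, and the 3 most alike genes for each. The genes and lists were chosen with earlier results of these data known. Calls with each pool left out were chosen after seeing the data. ACTG1, DSG2, DSTN, SCIN, RDX, MSN, LIMK1, LIMK2, GATA6, HNF4A, POU5F1 and NANOG were named after their values were seen. One list gene called with EZR is not reported here. The calculations were tested on simulated data. The software was R 4.3.3 and Python 3.11.15, the latter with scipy 1.17.1, pandas 2.3.3 and numpy 2.4.6.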

Additional observations from a re-analysis of the deposited data

How the results depend on the processing

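The correlations of KRT8 with KRT18, KRT8 with EZR and KRT18 with EZR were called under all 8 alternative settings, and 4 pairs were called with TMM and with DESeq2 size factors. The correlation of KRT18 with KRT19 was not called with all counted genes (adjusted p = 0.0762) or with the total count taken out (0.0596), and that of KRT8 with KRT19 was called by Pearson correlation (0.0294), the edgeR slope (0.0393) and the DESeq2 slope (0.0355). With 1 pool left out, 2 to 5 pairs were called, and 2 without pool 12 or without pool 13. Among these pairs, no direction was reversed. The split of all called genes did change: with CFL1, 26 higher and 6 lower became 12 and 24 by the edgeR slope.

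The number of genes called moved by over 1.5 times as follows, and the cause was not tested except that fewer or more tests enter the adjustment with another filter. For EZR, 68 became 132 with TMM and 113 with size factors. With all counted genes KRT8 had 104 (from 209), KRT18 165 (from 320), KRT19 170 (from 281), EZR 28, GSN 8 (from 21), CFL1 18 (from 32) and TAGLN2 1 (from 5). By Pearson correlation KRT7 had 8 (from 4), KRT8 327, VIM 47 (from 27), CFL1 67 and TAGLN2 2. Without pool 9, VIM had 14 and TAGLN2 3. With the total count taken out, VIM had 17 and TAGLN2 2. By the edgeR slope KRT7 had 1, KRT8 314, VIM 51 and TAGLN2 1. By the DESeq2 slope KRT7 had 13, KRT8 628, KRT18 734, KRT19 608, VIM 79, EZR 216, GSN 48, CFL1 109 and TAGLN2 8.

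Quartile ratios with TMM were 1.35 for KRT7, 1.34 for KRT8, 1.30 for KRT18, 1.83 for KRT19, 1.33 for EZR, 2.03 for GSN and 1.36 for TAGLN2. With size factors they were 1.36 for KRT7, 1.35 for KRT8, 1.29 for KRT18, 1.31 for EZR, 2.03 for GSN and 1.37 for TAGLN2. No paired analysis was possible because the labels give neither treatment nor replicate. Depth limits KRT7, with as few as 18 counts in a pool, and VIL1.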
